A study of Homo sapiens with 4 samples.

Results

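The S100 genes described here are S100A4, S100A6, S100A8, S100A9, S100A10, S100A11 and S100A12, 7 of the 27106 genes in the deposited table, found by gene symbol. Their messenger RNAs were sequenced, as part of total RNA, in THP-1, an established monocytic cell line that came from a human leukaemia. The cells had been transfected with an antisense oligonucleotide (ASO), a synthetic strand designed to pair with a chosen RNA, and the samples are labelled day 5. In the SGOL1-AS1 KD group (2 libraries, here the knockdown) the ASO targeted the long noncoding RNA SGOL1-AS1, and in the non-targeting group (2 libraries) it had no stated target. All 4 libraries thus come from 1 cell line that received an oligonucleotide, and no untreated cells are among them.

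S100 proteins are small calcium-binding proteins with paired EF-hand loops, and most of their genes lie in a cluster on chromosome 1. S100A8 and S100A9 join as calprotectin, a zinc- and manganese-binding complex that fills the cytosol of neutrophils and monocytes and, once released, signals through Toll-like receptor 4. S100A12 is a related myeloid protein that binds the receptor RAGE. S100A4 binds non-muscle myosin, S100A6 binds the ubiquitin ligase adaptor CACYBP, S100A10 joins with annexin A2 and does not bind calcium, and S100A11 binds annexin A1.

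The libraries held 48558537 and 41435922 reads in the knockdown group and 50855150 and 51851314 in the non-targeting group. Values are normalized counts, which are reads per gene divided by 1 size factor per library. The knockdown columns were assigned by elimination, because their code is not among the labels, and every direction below rests on that. The targeted RNA, under its current symbol SGO1-AS1, had 12 and 17 reads in the knockdown libraries and 24 and 21 in the non-targeting libraries, and its difference did not pass the threshold (limma, log2 fold change -0.48, adjusted p = 0.555), so its level is no check of the labels. No label names separate cultures, and p-values therefore reflect the spread among these libraries alone, which may be technical. In limma a gene's own spread is also drawn toward that of other genes at a similar level. Most of the 22.17 residual plus prior degrees of freedom came from those other genes. The SEs, 95% intervals and p-values given below for limma are thus not the spread of each gene's own values. In bulk RNA, fewer cells that express a gene and less of its RNA per cell cannot be told apart. Of 7 monocyte markers, LYZ, CD33, ITGAM and CSF1R stood at 2869 normalized counts or more in every library, and FCGR1A at 2038 or more. MPEG1 was lower, at 192 and 275 in the knockdown and 323 and 330 in the non-targeting libraries. CD14 was low at 105 and 94.7 in the knockdown and 110.4 and 104 in the non-targeting libraries. Of 5 neutrophil granule genes, CTSG, at 35914 or more in every library, was also abundant. The others were lower, MPO at 557 to 596, ELANE at 18.2 to 31.6 and AZU1 at 2.88 to 6.59 over the libraries. PRTN3 was not analysed here.

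The calprotectin genes rose in the knockdown, S100A4 fell, and S100A6, S100A10 and S100A11 did not pass the threshold. Of the 7 genes 6 were tested, and of these 2 rose and 1 fell (limma on log2(normalized count + 1), Benjamini-Hochberg adjusted p under 0.05 over 19398 genes). Over all tested genes 0.851% rose and 3.4% fell, 4.25% together. S100A12 had a mean under the minimum of 10 normalized counts and was not tested. In 3 of the 6 the groups did not overlap, as was so for 46.7% of all tested genes, with both knockdown values above both non-targeting values in 21.6% and below them in 25.1%. The median log2 fold change of the 6 was 0.03, against -0.01 over all tested genes.

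**Figure D1:**
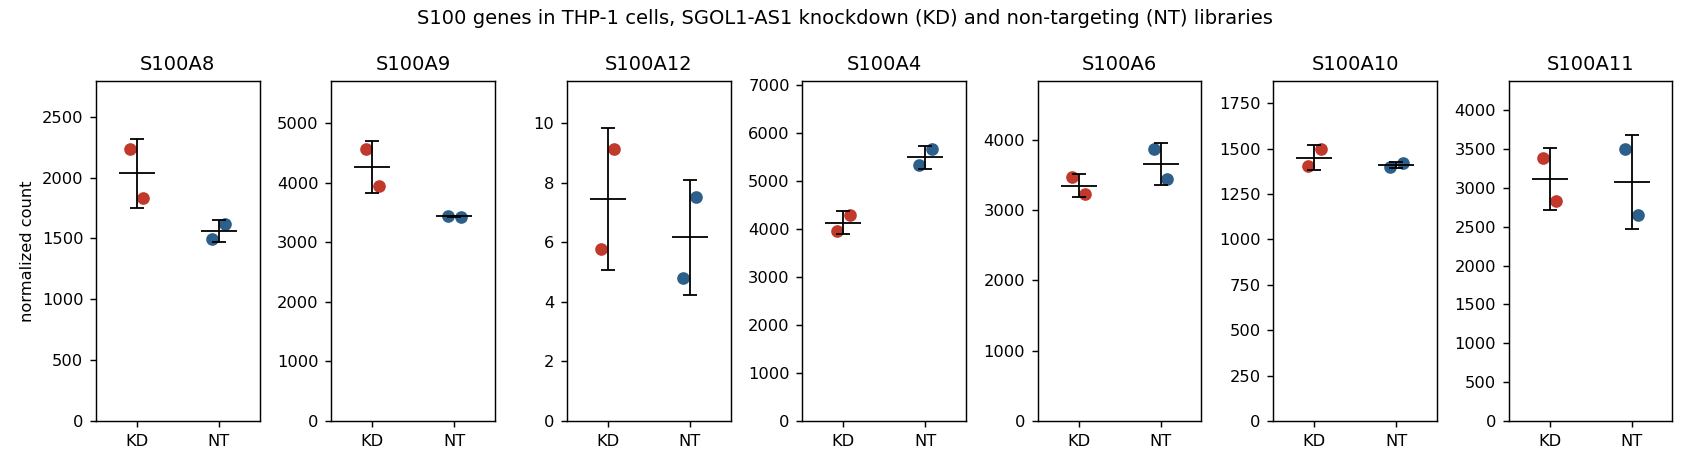
Normalized counts (vertical axes, from 0) of the 7 S100 genes in the 2 knockdown (KD) and 2 non-targeting (NT) libraries, with points for libraries, long bars for means and error bars for the SD. S100A8 and S100A9 lie higher in both knockdown libraries, at 1833 or more and 3947 or more, S100A4 lies lower in both, at 4295 or less, and the groups of the other 4 genes overlap.

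S100A8, the smaller calprotectin subunit, had 2234 and 1833 normalized counts in the knockdown libraries, against 1493 and 1622 in the non-targeting libraries. Both knockdown values lay above both non-targeting values, and the knockdown libraries lay further apart than the non-targeting ones. The means were 2034 ± 284 in the knockdown and 1558 ± 91.0 in the non-targeting group (SD, n = 2 each), a log2 fold change of 0.38 ± 0.08 (SE) with a 95% interval of 0.22 to 0.54 (limma, adjusted p = 0.00491). The pooled reads, 3937 in the knockdown and 3279 in the non-targeting group, gave a rate ratio of 1.32. Its exact 95% Poisson interval was 1.26 to 1.38, for counting error alone. S100A8 (ENSG00000143546) lies on the minus strand of chromosome 1 from 153390032 to 153391188 (GRCh38).

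S100A9, the subunit that carries the longer tail, had 4566 and 3947 normalized counts in the knockdown libraries, against 3444 and 3431 in the non-targeting libraries. The groups did not overlap, and the non-targeting libraries were nearly equal. The means were 4257 ± 437 in the knockdown and 3437 ± 8.92 in the non-targeting group (SD, n = 2 each), a log2 fold change of 0.30 ± 0.06 (SE) with a 95% interval of 0.18 to 0.43 (limma, adjusted p = 0.00491). S100A9 (ENSG00000163220) lies on the plus strand from 153357854 to 153361027, so the subunit genes sit on opposite strands with S100A12 between them. Without knockdown library 1 the log2 fold changes were 0.24 for S100A8 (limma, adjusted p = 0.0441) and 0.20 for S100A9 (limma, adjusted p = 0.0452), and without knockdown library 2 they were 0.52 and 0.41.

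The subunit genes kept nearly the same ratio in all libraries. Per kilobase of annotated exon, S100A8 stood at 0.281 and 0.266 times the S100A9 level in the knockdown libraries and at 0.249 and 0.271 times in the non-targeting libraries. These ratios overlap between the groups. Annotated exons can be longer than the main messenger RNA, so a level per kilobase is lowered for genes with many listed transcripts.

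S100A4, known for its part in cell movement, moved the other way. It had 3961 and 4295 normalized counts in the knockdown libraries, against 5327 and 5665 in the non-targeting libraries. Both knockdown values lay below both non-targeting values, with a gap wider than either group's own range. The means were 4128 ± 236 in the knockdown and 5496 ± 239 in the non-targeting group (SD, n = 2 each), a change of -24.9% and a log2 fold change of -0.41 ± 0.06 (SE) with a 95% interval of -0.53 to -0.30 (limma, adjusted p = 9.36e-05). By p it stood at rank 52 of the 19398 tested genes, and S100A9 and S100A8 at ranks 272 and 273. The pooled reads, 7896 in the knockdown and 11568 in the non-targeting group, gave a rate ratio of 0.748 (exact 95% Poisson interval 0.727 to 0.770, counting error only). S100A4 (ENSG00000196154) lies on the minus strand from 153543613 to 153550136. Its annotated span overlaps S100A3 on the same strand, and how reads in the shared stretch were assigned is not given in the sources used here. Leaving out each library in turn gave log2 fold changes from -0.47 to -0.35, each past the threshold (limma).

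The stretches before the starts of the genes that changed are shown because S100A8 and S100A9 moved together and S100A4 moved against them. They are from RefSeq (GRCh38.p14), whose table holds windows for all 7 genes. Each is written 5′ to 3′ on the gene's own strand, with bases in annotated exons left out. Capitals mark matches, on either strand, to 6 motifs, none of which overlap in the printed stretches. The letters searched were TTNNGNAA for the C/EBP family of myeloid activators. They were GAGGAA for PU.1, the myeloid Ets factor. For AP-1, the factor of Fos and Jun proteins, they were TGANTCA. For the TATA box of the core promoter they were TATAAA. For Sp1, a general promoter-binding factor, they were GGGCGG. The last was the interferon-stimulated response element.
S100A8, chr1:153391189-153391438, minus strand: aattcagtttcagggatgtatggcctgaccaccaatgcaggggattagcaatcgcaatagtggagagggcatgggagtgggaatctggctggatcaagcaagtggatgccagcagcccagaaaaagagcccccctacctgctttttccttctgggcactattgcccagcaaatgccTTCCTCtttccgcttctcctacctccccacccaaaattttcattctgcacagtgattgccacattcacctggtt
S100A9, chr1:153357604-153357853, plus strand: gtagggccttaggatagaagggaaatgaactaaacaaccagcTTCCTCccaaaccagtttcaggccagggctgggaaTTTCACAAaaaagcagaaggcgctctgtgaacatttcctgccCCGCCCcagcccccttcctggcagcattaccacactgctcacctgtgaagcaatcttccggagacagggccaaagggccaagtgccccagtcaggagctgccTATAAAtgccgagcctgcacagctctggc
S100A4, chr1:153545886-153546056, minus strand: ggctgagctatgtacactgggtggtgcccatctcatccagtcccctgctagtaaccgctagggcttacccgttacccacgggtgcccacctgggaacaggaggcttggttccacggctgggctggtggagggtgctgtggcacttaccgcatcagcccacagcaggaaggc

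In the 250 bases before its start, S100A9 held the PU.1 letters 208 bases before the start, the C/EBP letters at 173, the Sp1 letters at 131 and the TATA letters at 29. RefSeq gives S100A8 3 starts with overlapping windows. The stretch before the outermost start, printed above, held the PU.1 letters 74 bases before it, a site 189 bases before the middle start. The middle start had the TATA letters at 29 and the C/EBP letters at 117. These same sites lie 126 and 214 bases before the innermost start, which also had the C/EBP letters at 78. S100A4 held the TATA letters 31 bases before its start, in a part that is exonic in another transcript and is not printed. The C/EBP letters were also in the windows of genes that were not called or not tested, at 120 bases before the start of S100A6, at 248 and 33 in S100A11 and at 94 and 77 in S100A12, while S100A10 held only the Sp1 letters. The Sp1 letters were also at 90, 79 and 75 in S100A6 and at 68 in S100A11. S100A12 also held the AP-1 letters at 57 and the TATA letters at 8. Of 35116 RefSeq windows of the same length, 33.2% held the C/EBP letters, 23.6% the PU.1, 42.6% the Sp1, 10.7% the TATA, 6.57% the AP-1 and 3.02% the interferon element letters. Such matches are descriptions of letters and show no binding.

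S100A6, or calcyclin, had 3468 and 3236 normalized counts in the knockdown libraries, against 3872 and 3449 in the non-targeting libraries. The groups overlapped, since knockdown library 1 exceeded non-targeting library 2. The log2 fold change was -0.13 ± 0.06 (SE), with a 95% interval of -0.25 to 0.00 (limma, adjusted p = 0.302). S100A6 (ENSG00000197956, minus strand, 153534599 to 153536244) lies 7.37 kb from S100A4, its nearest neighbour among the 7 genes. Its span, like that of S100A11, overlaps an annotated gene on the other strand, and reads of such pairs cannot be told apart without a stated strand setting.

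S100A10, the annexin A2 partner, was the steadiest of the 7 across the 4 libraries. It had 1405 and 1499 normalized counts in the knockdown libraries, against 1398 and 1422 in the non-targeting libraries, with a log2 fold change of 0.04 and a 95% interval of -0.10 to 0.18 (limma, adjusted p = 0.816). S100A11, or calgizzarin, had 3393 and 2828 normalized counts in the knockdown libraries, against 3503 and 2654 in the non-targeting libraries. Its libraries differed more within each group than the groups differed, with means of 3111 ± 399 in the knockdown and 3079 ± 601 in the non-targeting group (SD, n = 2 each). Its log2 fold change was 0.02, with a 95% interval of -0.17 to 0.21 (limma, adjusted p = 0.934). S100A10 (ENSG00000197747, 151982915 to 151994390) and S100A11 (ENSG00000163191, 152032506 to 152047907) lie on the minus strand, and 1309.95 kb separate S100A11 from S100A9.

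S100A12 was close to absent. It had 6 and 8 reads in the knockdown libraries and 5 and 8 in the non-targeting libraries, between its abundant neighbours S100A9 and S100A8. The pooled rate ratio was 1.18, with an exact 95% Poisson interval of 0.515 to 2.73, so a difference was not detectable at this depth. With no filter on low values its log2 fold change was 0.23 (limma, adjusted p = 0.901).

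**Figure D2:**
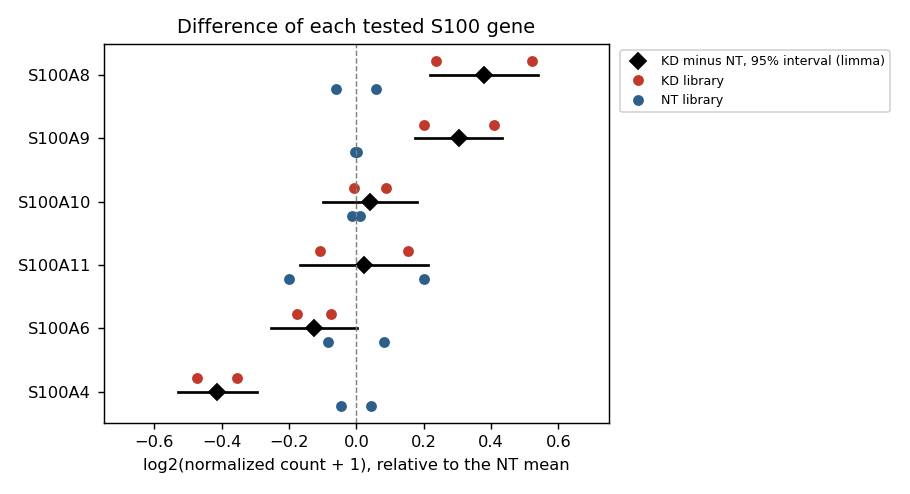
Difference from the non-targeting mean on the log2(normalized count + 1) scale (horizontal axis) for the 6 tested S100 genes, with diamonds for the knockdown minus non-targeting fold change, lines for its 95% interval, and circles for knockdown (above each line) and non-targeting libraries (below it). The intervals of S100A8, S100A9 and S100A4 lie clear of 0, while those of S100A10, S100A11 and S100A6 reach it.

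Ordered by level per kilobase of annotated exon, S100A9 came first in every library, at 7913 and 6841 in the knockdown and 5968 and 5946 in the non-targeting libraries. S100A11 followed at 4990 and 4159 in the knockdown libraries and 5152 and 3903 in the non-targeting libraries, and S100A4 at 3864 and 4190 in the knockdown and 5197 and 5526 in the non-targeting libraries. S100A11 and S100A4 overlapped in the knockdown libraries, and S100A4 lay above S100A11 in both non-targeting libraries. S100A6 stood lower, at 3571 and 3332 in the knockdown and 3988 and 3552 in the non-targeting libraries, where it overlapped S100A11. S100A8 lay below them at 2221 and 1822 in the knockdown and 1484 and 1612 in the non-targeting libraries, and S100A10 was lower again, between 906 and 971 in all 4. By mean level per kilobase S100A9 ranked 204 among 13283 tested protein-coding genes, S100A4 337, S100A11 349, S100A6 461, S100A8 1102 and S100A10 2361. The order depends on the annotated exon lengths, 577 bases for S100A9 and 1025 for S100A4. In normalized counts S100A4 lay above S100A9 in both non-targeting libraries, at 5327 and 5665 against 3444 and 3431. The same was so in knockdown library 2 (4295 against 3947), but not in knockdown library 1 (3961 against 4566).

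The S100 transcripts shifted in make-up more than in total. The summed normalized count of the 7 genes was 19032 and 17647 in the knockdown libraries and 19042 and 18250 in the non-targeting libraries, and the groups overlapped. Calprotectin genes took 35.7% (Wilson 95% interval 35.1 to 36.4) and 32.8% (32.0 to 33.5) of the 7 genes' reads in the knockdown libraries, against 25.9% (25.3 to 26.5) and 27.7% (27.1 to 28.3) in the non-targeting libraries. These intervals cover counting error only, not the spread between libraries. They also treat reads as independent, which reads copied by PCR are not. S100A4 took 20.8% (20.3 to 21.4) and 24.3% (23.7 to 25.0) in the knockdown, against 28.0% (27.4 to 28.6) and 31.0% (30.4 to 31.7) in the non-targeting libraries. Both shares differed between the groups by more than the libraries of a group did. Per kilobase of annotated exon, S100A9 stood at 2.05 and 1.63 times S100A4 in the knockdown libraries and at 1.15 and 1.08 times in the non-targeting libraries. The size of these ratios depends on the annotated exon lengths.

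Set against the other family members, the mean log2 value of S100A8 and S100A9 minus that of S100A4, S100A6, S100A10 and S100A11 was 0.17 and -0.04 in the knockdown libraries, against -0.48 and -0.31 in the non-targeting libraries. The groups did not overlap, and their means differed by 0.46, with a pooled SD of 0.14 between libraries. Without S100A4 among the other members, a choice made after seeing the data, the difference was 0.36. No p is given, since the genes were chosen with results of these data known.

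Of 14 other S100 family genes listed, 7 had values and 4 were tested, where 4.25% of all tested genes were called. S100P stood at 240 and 243 normalized counts in the knockdown libraries and 219 and 246 in the non-targeting libraries, and S100A13 at 106 and 108 in the knockdown and 106 and 93.1 in the non-targeting libraries. S100A2 and S100A5 were lower still, with means of 41.4 and 11.6 in the knockdown and 38.0 and 10.9 in the non-targeting group. None passed the threshold by limma, edgeR or DESeq2, and 0 had an unadjusted p under 0.05 in limma. S100A1, S100A14 and S100B had at most 3 reads in any library, and the other 7 genes, among them S100A3, S100A7 and S100A16, were not analysed here.

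Around the 7 genes, no tested neighbour passed the threshold. With so few neighbours this is near the share over all tested genes, 4.25%. In the stretch of chromosome 1 from 151532506 to 154113145, which spans S100A11 to S100A16 with 500 kb on each side, 42 genes were tested and 36 of them were not among the 7. Of these 36, 0 passed the threshold (limma; 3 at an unadjusted p under 0.05; 0 by edgeR and 0 by DESeq2), with a median log2 fold change of 0.01 and a range over the 42 of -0.76 to 0.48, whose ends were genes with wide errors. SNAPIN, a SNARE-binding protein, had the smallest p, with 791 and 834 normalized counts in the knockdown and 899.8 and 942 in the non-targeting libraries (limma, log2 fold change -0.18, adjusted p = 0.217).

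**Figure D3:**
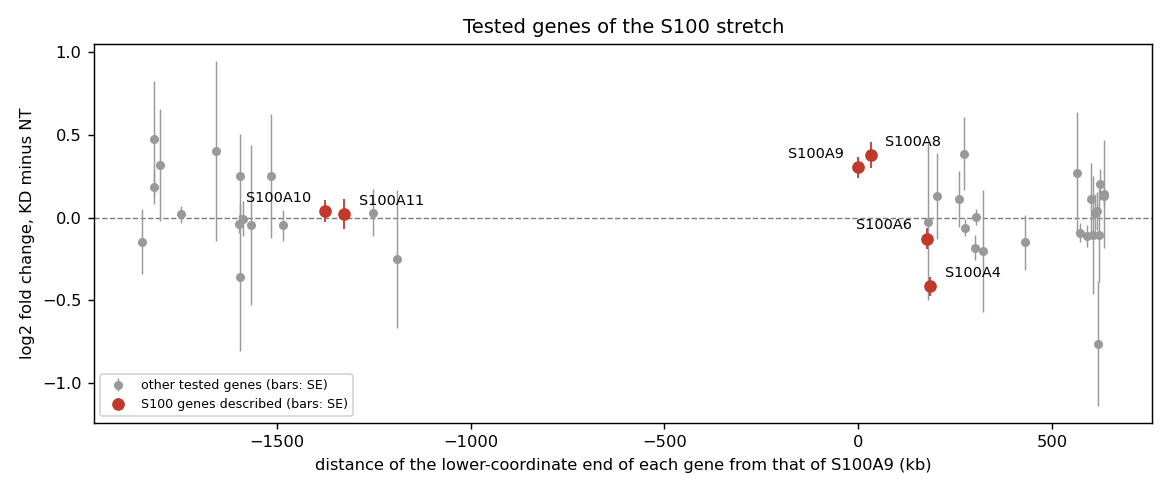
Log2 fold change, knockdown minus non-targeting (vertical axis, bars for the SE), of the 42 tested genes in the S100 stretch of chromosome 1 against the distance in kb of each gene's lower-coordinate end from that of S100A9 (horizontal axis). S100A8 and S100A9 stand next to each other above 0 at 0.38 and 0.30, and S100A4 lies below at -0.41, beside S100A6 at -0.13.

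Among S100 binding partners, ANXA6, AHNAK and ANXA2 were lower. Of 14 tested, 3 fell and 0 rose (limma), with a median log2 fold change of -0.07, against -0.01 over all genes and 3.4% of all genes lower. ANXA6, a membrane-binding annexin, fell to 15888 and 17166 normalized counts in the knockdown libraries, against 19441 and 19752 in the non-targeting libraries (limma, log2 fold change -0.25, adjusted p = 0.00473). AHNAK, the giant scaffold that binds the S100A10 and annexin A2 complex, fell by 0.21 on the log2 scale (limma, adjusted p = 0.0300), and ANXA2 itself fell by 0.24 (limma, adjusted p = 0.0498). ANXA2 stood at 5782 and 7085 normalized counts in the knockdown and 7301 and 7792 in the non-targeting libraries. ANXA1 was at 0.16 (adjusted p = 0.0996 by limma), the S100A4 partner MYH9 at -0.07 and the S100A6 partner CACYBP at 0.00. The call of ANXA2 ended in 11 of 16 alternatives, among them without non-targeting library 2 (limma, adjusted p = 0.208) and without knockdown library 1 (log2 fold change -0.09, adjusted p = 0.476). That of AHNAK ended in 8, among them without the first (0.0838) or the second (0.376) of the non-targeting libraries or knockdown library 1 (0.151), and that of ANXA6 in 2, one of them without non-targeting library 2 (0.0693). Without non-targeting library 2 the list had 0 calls, and without knockdown library 2 it had 4 lower, by limma's adjusted p. With the same total in every library, with quantile normalization and without knockdown library 1, 1 of the 14 rose, ANXA1 at 0.21, 0.21 and 0.19, and 1 fell.

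Receptors and signalling genes of extracellular calprotectin showed 1 change, where 4.25% of all tested genes were called. Of 14 genes listed 12 were tested, and the adaptor MYD88 fell to 3527 and 3958 normalized counts in the knockdown libraries, against 4423 and 4807 in the non-targeting libraries (limma, log2 fold change -0.30, adjusted p = 0.00449). Its call ended in 2 of 16 alternatives, with no mean-variance trend (limma, adjusted p = 0.396) and without non-targeting library 2 (limma, -0.24, adjusted p = 0.0820). TLR4, the main receptor, was at -0.10 and its kinase IRAK4 at -0.03. BSG, the immunoglobulin-like receptor basigin, was at -0.13, and fell only without knockdown library 1 among the 16 alternatives (limma, -0.16, adjusted p = 0.0464), and CD36 was at 0.04. The TLR4 co-receptor gene LY96 was below the filter, at 3.84 and 5.70 normalized counts in the knockdown and 7.68 and 10.3 in the non-targeting libraries. The RAGE gene AGER was not analysed here.

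Of 14 myeloid transcription factors, several of which are known to act on S100A8 and S100A9, 3 fell and 0 rose (limma). Over all tested genes 3.4% fell and 0.851% rose. The median log2 fold change of the 14 was -0.13, against -0.01 over all tested genes. BHLHE40, a repressor of the basic helix-loop-helix class, fell to 1616 and 1613 normalized counts in the knockdown, against 2094 and 2079 in the non-targeting libraries (limma, log2 fold change -0.37, adjusted p = 0.000706). KLF4, a factor of monocyte maturation, fell by 0.30 on the log2 scale (limma, adjusted p = 0.0202) and CEBPB, a C/EBP activator of myeloid genes, by 0.27 (limma, adjusted p = 0.0484). CEBPA was at -0.12, SPI1, which encodes PU.1, at -0.14 and STAT3 at -0.09. Of the 14, 3 were above 0, RUNX1 at 0.10, CEBPE at 0.09 and GFI1 at 0.04, all short of the threshold. A factor's activity was not measured. Lower calls of the list numbered 1 with quantile normalization, with the same total in every library or by DESeq2. They numbered 2 by edgeR and 4 with the same median in every library. The call of CEBPB ended in 10 of 16 alternatives, among them without non-targeting library 1 (limma, adjusted p = 0.519) and without knockdown library 2 (-0.15, adjusted p = 0.265), and that of KLF4 in 6, among them without non-targeting library 1 (0.369) or knockdown library 1 (0.0509). The list had 1 lower call without non-targeting library 1 and 5 without non-targeting library 2 or knockdown library 1.

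Genes of the monocyte cytosol and surface, which are often expressed with the S100 genes, mostly did not follow calprotectin. Of 15 tested, 1 rose and 4 fell (limma), against 0.851% and 3.4% of all tested genes. Their median log2 fold change was -0.15, against -0.01 over all tested genes. VCAN, a proteoglycan of classical monocytes, rose to 6654 and 7613 normalized counts in the knockdown, against 5471 and 5843 in the non-targeting libraries (limma, log2 fold change 0.33, adjusted p = 0.00162). CTSS, a lysosomal protease, fell by 0.32 on the log2 scale (limma, adjusted p = 0.00163) and VIM, the intermediate filament vimentin, by 0.20 (limma, adjusted p = 0.0186). The call of VIM ended in 5 of 16 alternatives, which were no mean-variance trend (limma, adjusted p = 0.390), quantile normalization (-0.14, 0.0868), the same total in every library (-0.14, 0.0917) and leaving out the first (0.253) or the second (0.138) of the non-targeting libraries. LYZ was at 0.10 and CSTA, a cystatin, at 0.11, both short of the threshold. The count of lower genes was 1 without non-targeting library 1 and 2 without non-targeting library 2, against 6 without knockdown library 2, and 2 rose without knockdown library 1. With the same total in every library or quantile normalization 3 of these genes rose by limma's adjusted p, VCAN, LYZ and ANXA1, and 1 fell.

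Where 3.4% of all tested genes fell, 1 of the 8 phagocyte oxidase genes, whose enzyme calprotectin is known to help activate, fell (limma). This was CYBA, the p22phox subunit, at 22006 and 20676 normalized counts in the knockdown, against 25755 and 24815 in the non-targeting libraries (limma, log2 fold change -0.25, adjusted p = 0.00455), and its call ended in 3 of 16 alternatives, which were no mean-variance trend (0.369), quantile normalization (-0.16, adjusted p = 0.0633) and leaving out non-targeting library 1 (0.138). CYBB, its membrane partner, was at 0.14 (limma, adjusted p = 0.133), and rose with quantile normalization, with the same total and without knockdown library 1 (0.20, 0.20 and 0.18). Calcium-binding proteins with EF-hand loops outside the S100 family showed no call among 14 tested (limma; 3 at an unadjusted p under 0.05; 0 by edgeR and 0 by DESeq2). The share called over all tested genes was 4.25%. The list also holds CALR, calreticulin, which binds calcium without an EF hand. Log2 fold changes ran from -0.12 to 0.13, and NUCB1, a Golgi calcium protein, had the smallest p (limma, -0.12, adjusted p = 0.202). In 2 of 16 alternatives 1 gene passed the threshold, EFHD2 lower without knockdown library 1 (limma, -0.19, adjusted p = 0.0269) and LCP1 higher with quantile normalization (limma, 0.17, adjusted p = 0.0169).

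Marker lists of monocytes and of other cell types are given beside these changes. For their counts, 3.4% of all tested genes fell and 0.851% rose. The summed normalized count of the 7 monocyte markers, most of it LYZ, was 52323 and 53161 in the knockdown and 51388 and 51033 in the non-targeting libraries. Their median log2 fold change was -0.10, with 2 of the 7 above 0. FCGR1A and MPEG1 fell by 0.37 and 0.51 on the log2 scale (limma, adjusted p = 0.00118 and 0.0346). The call of MPEG1 ended in 10 of 16 alternatives, among them without knockdown library 1 (-0.25, adjusted p = 0.336), or without the first (0.0565) or the second (0.0739) of the non-targeting libraries. Neutrophil granule genes summed to 39537 and 36494 in the knockdown and 40306 and 40427 in the non-targeting libraries, nearly all of it CTSG, and 0 of 3 tested passed (limma; 0 at an unadjusted p under 0.05; 0 by edgeR and 0 by DESeq2). B cell markers summed to 2905 and 3562 in the knockdown and 4780 and 4733 in the non-targeting libraries, mostly PAX5, which fell by 0.58 (limma, adjusted p = 2.45e-05). T cell, erythroid, epithelial and fibroblast lists summed to at most 206 in any library, with 3 of 4, 4 of 5, 4 of 5 and 2 of 4 of their genes not analysed here. The part of other cells in the S100 changes was not tested.

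Among 7390 genes with a mean of at least 1000 normalized counts, profiles over the 4 libraries were compared by Euclidean distance of their log2 values centred on each gene's mean. Those closest to S100A8 were MEIS1, a HOXA9 cofactor, at 0.0749, the noncoding RNA KCNQ1OT1, the transporter ABCA13, the ciliary protein gene IFT57 and the noncoding RNA HELLPAR, at up to 0.121. Those closest to S100A9 were TTN-AS1 at 0.0440, IFT57, KCNQ1OT1, ANKRD36 and HELLPAR, at up to 0.0632. S100A9 was itself at place 7 in the order of closeness to S100A8, and S100A8 at place 35 in that to S100A9, at a distance of 0.127. S100A10, S100A11, S100A6 and S100A4 followed at places 2070, 4789, 6009 and 7297 in the order from S100A8. By the same measure, added after values were seen, the genes closest to S100A4 were CDK18, TYMP, IER2, PARP10 and PHACTR4, at 0.0375 to 0.0680. These likenesses rest on 4 libraries, which all genes share, and carry no test.

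**Figure D4:**
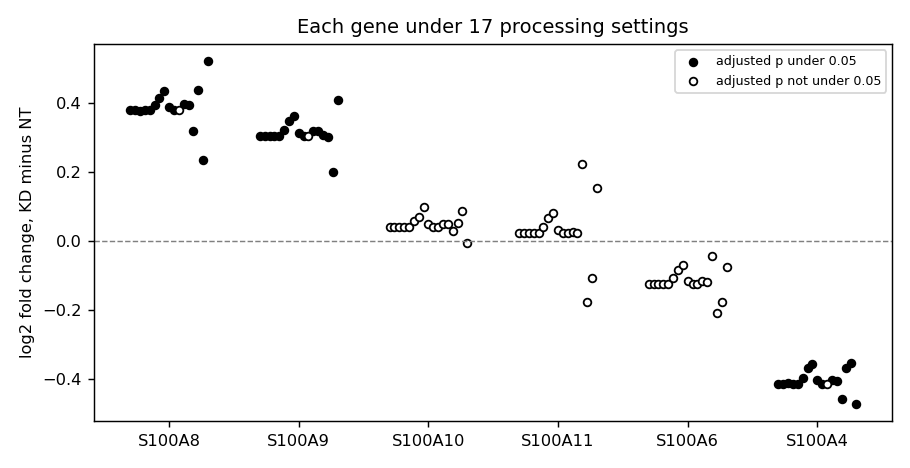
Log2 fold change, knockdown minus non-targeting (vertical axis), of the 6 tested S100 genes under 17 processing settings, with filled circles where the adjusted p was under 0.05. S100A8 ran from 0.24 to 0.52, S100A9 from 0.20 to 0.41 and S100A4 from -0.47 to -0.35, each with 1 open circle, limma with no mean-variance trend, while S100A11 and S100A10 fell on both sides of 0.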

How the data were processed

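Total RNA was extracted with a Qiagen kit and made into NEBNext Ultra II libraries, per the labels' protocols. The authors deposited a normalized signal for each gene, which from the values is whole reads over a single size factor per library. Per the submitters' processing notes, STAR 2.5.1b, DESeq2 and GRCh38 were used, in roles not stated. The sources used here do not give the annotation, counting tool or strand setting. Whole reads were recovered from every value (largest distance from a whole read 0.000156). Every gene in the table has at least 2 reads in knockdown library 1.

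Columns coded 79-4 were taken as the knockdown, and are numbered in column order. Gene symbols were looked up by Ensembl identifier (26579 matched), positions and exonic lengths from GENCODE 29 (26077 matched). The log2 of each value plus 1 entered limma 3.58.1 (R 4.3.3), with a mean-variance trend, over the 19398 genes with a mean of at least 10. On this scale the change of a low gene appears smaller. Fold changes are knockdown over non-targeting. EdgeR 4.0.16 and DESeq2 1.42.0 were run on the recovered reads as alternatives. The test scripts were checked on simulated counts. The members and gene lists were chosen with earlier results of these data known. Named genes were the members, other S100 genes, and of each list up to 3 called genes with the smallest p or, with none called, the 1 with the smallest p, for the marker lists mainly as sums, and the 5 closest profiles to S100A8 and to S100A9. All others were added after values were seen.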

Additional observations from a re-analysis of the deposited data

How the results depend on the processing

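S100A8, S100A9 and S100A4 kept their direction in 16 alternatives (2 other pseudocounts, 2 other filters, 4 other scalings, robust empirical Bayes, no trend, edgeR, DESeq2 and each library left out) and their call in all but limma with no mean-variance trend, where adjusted p was 0.415 for S100A8 (0.38), 0.399 for S100A9 (0.30) and 0.313 for S100A4 (-0.41). No gene passed there (0 genes), and 2337 had an unadjusted p under 0.05. The SE without the trend was 0.13 for S100A8, 0.10 for S100A9, 0.08 for S100A4 and 0.19 for S100A11. With the trend it was 0.08, 0.06, 0.06 and 0.09. With 1 library left out, S100A8 ran from 0.24 to 0.52, S100A9 from 0.20 to 0.41, S100A4 from -0.47 to -0.35, S100A6 from -0.21 to -0.04, S100A10 from -0.0055 to 0.0876 and S100A11 from -0.18 to 0.22. S100A10 turned negative without knockdown library 2, at -0.0055, and S100A11 without non-targeting library 2 (-0.18) or knockdown library 1 (-0.11), none of them past the threshold. A group left with 1 library was taken to vary as the other group did. The calprotectin difference of 0.46 ran from 0.36 to 0.57.

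Over all genes, 165 rose and 660 fell, with 80% of calls lower. The counts were 291 and 650 (69.1% lower) with the same median in every library, 142 and 334 under quantile normalization, 235 and 293 (55.5%) when library totals were equal, 66 and 379 by DESeq2, and 0 and 0 with no trend. With 1 library left out, 87 to 309 rose and 334 to 960 fell: 87 and 334 without non-targeting library 1, 90 higher without non-targeting library 2 and 309 higher without knockdown library 2. The cause of these shifts was not tested. No paired analysis was possible because the knockdown columns share only 1 replicate number with the non-targeting columns. Depth limits S100A12, with 14 reads in the knockdown and 13 in the non-targeting group.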
